A study of Arabidopsis thaliana with 6 samples.

Results

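The members described here are 130 probe sets whose transcripts stood higher after the repressor fusion GR-bdl was released by dexamethasone (DEX) ahead of auxin than after auxin alone. They were picked from 22746 probe sets of the Affymetrix ATH1 array, of which they are 0.572%. A member had a mean log2 intensity of at least 5 in DEX-treated GR-bdl seedlings, a mean at least 0.7 above that of the GR-bdl seedlings without DEX, and both DEX arrays above both control arrays. Control probe sets were not considered, and the cytokinin response regulator gene ARR16, which met the same conditions, was left out. Of the 130 members, 60 had 1 gene, 60 distinct genes in all, 0 had several and 70 had none by the annotation at hand. Only those 60 are named. The annotation gives a family or function name to 8 of them, and the other 52 are known here by their locus code alone.

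All plants were whole Arabidopsis thaliana seedlings, 9 days old, in 3 groups of 2 arrays that each came from a separate culture. The controls carried pRPS5A-Myc-GR-bdl and were given IAA, a natural auxin, at 50 µM for 1 h without DEX. The second group carried the same transgene and received 10 µM DEX for 1 h and then 50 µM IAA for 1 h. The third group was the mutant mp-B4149, without the transgene. By the design text and the source labels it received DEX and then IAA at the same doses and times, while the titles of its 2 arrays name IAA alone. All 3 groups therefore had auxin. No group of plants without the transgene or the mutation, and no group without auxin, was analysed here. The fusion was driven by the RPS5A promoter, which is known for its activity in dividing cells, while the RNA came from whole seedlings. In such samples fewer cells of a type and less RNA per cell cannot be told apart. DEX itself was given to only 1 of the GR-bdl groups, so in the GR-bdl line the effect of DEX and that of the released fusion cannot be told apart.

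BODENLOS (BDL) is an Aux/IAA protein. Such proteins hold down the activity of auxin response factors, among them MONOPTEROS (MP), until auxin marks the Aux/IAA protein for destruction. The bdl form resists that destruction, and a fusion to the glucocorticoid receptor (GR) stays outside the nucleus until a ligand such as DEX is given. Transcripts that rise when a stabilised repressor enters the nucleus go the opposite way to the well known auxin-induced genes. The mp mutant lacks MP activity and is known for seedlings that fail to form an embryonic root.

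Array medians lay between 26.1 and 27.1 on the linear intensity scale, and arrays of a group had a median SD of 0.07 (controls), 0.11 (DEX-treated GR-bdl) and 0.10 (mp) on the log2 scale. Of 14 root markers the annotation matched 4 to a probe set, which does not show that the array lacks the others. None of these 4 was called between the GR-bdl groups, although 2 had an unadjusted limma p under 0.05. JKD differed by −0.80 ± 0.18 with DEX (limma adjusted p = 0.0756). It was called lower when centred on the hybridization controls (−0.82, limma adjusted p = 0.0429) and with trend and robust eBayes settings (limma adjusted p = 0.0442). Without control array 2 its difference was −1.06. The summed intensity of EXPA7, EXPA18 and JKD ranged from 279.1 to 319.5 in the controls, 188.3 to 306.7 with DEX and 34.4 to 34.8 in mp. That of all 4, which the beta-glucosidase gene PYK10 dominates, ranged from 9501 to 9813, 9390 to 9893 and 9780 to 10415. No root marker was listed at 0. The root expansin genes EXPA7 and EXPA18 had means of 3.65 and 3.70 in mp, close to the floor of the array (here a group mean under 4). That limit takes in 44.0% of all probe sets in mp, and some means lay well below it, such as 1.13 for UGT76E1 in the controls. The 4 of 7 shoot photosynthesis markers that were matched to a probe set summed to 37418 to 37576 in the controls, 37249 to 38945 with DEX and 34947 to 36659 in mp. Both mp arrays were thus below all GR-bdl arrays. Of these markers SBPASE was called higher than the controls in mp (0.31 ± 0.11, limma adjusted p = 0.0451), though not under several alternatives. LHCB4.1 (−0.17 ± 0.10) and RCA (−0.18 ± 0.11) were called lower under some alternatives only. Spiked poly-A RNA controls (24 probe sets) were higher by a median of 0.36 with DEX and 0.61 in mp than in the controls, and hybridization controls (18 probe sets) by 0.05 and 0.33. Centring on the hybridization controls is among the alternatives given below. The part of the poly-A differences in the results was not tested.

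The values that chose the members are given first, as a description. The difference between DEX-treated and control GR-bdl seedlings ran from 0.70 to 1.94 on the log2 scale with a median of 0.83, which are folds of 1.63, 3.83 and 1.78. Only 35 members reached a difference of 1, of which 14 are named, and 4 reached 1.5. Mean log2 levels with DEX ran from 5.04 to 11.0 with a median of 6.87, and in the controls 30 members had a mean under 5 and 2 a mean under 4, so most were already well measured there. Across all probe sets 29.0% had both DEX arrays above both control arrays, a condition the members met by choice. The gap between the lower DEX array and the higher control array ran from 0.18 to 1.83 among members with a median of 0.60. It was at least 0.7 for 43 members and under 0.2 for 4. Just inside the threshold stood AT3G18050 (0.7006) and 3 probe sets without a gene (0.701, 0.7027 and 0.7116). Just outside stood AT3G11600 (0.6999), AT3G52480 (0.6987), AT5G06270 (0.6948) and 1 probe set without a gene (0.6976).

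The 2 arrays of a GR-bdl group lay further apart for the members than for most well measured probe sets. The median absolute gap between the control arrays was 0.20 for members and 0.09 for the 10867 probe sets with a DEX mean of at least 5, and between the DEX arrays it was 0.27 and 0.16. Control array 1 was the higher of the control arrays for 63.8% of the members, against 45.3% of those 10867. In 10 members the control arrays differed by at least 0.7, and in all 10 control array 1 was the higher. Among them are AT2G20670, AT2G17850 and AT2G43530. The DEX arrays differed that much in 7 members, including AT5G48490, AT2G04050, TBL39 and UGT76E11, with DEX array 1 higher in 4 of the 7. Applying the rule without control array 1, control array 2, DEX array 1 or DEX array 2 kept 113, 93, 90 and 108 of the 130.

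**Figure D1:**
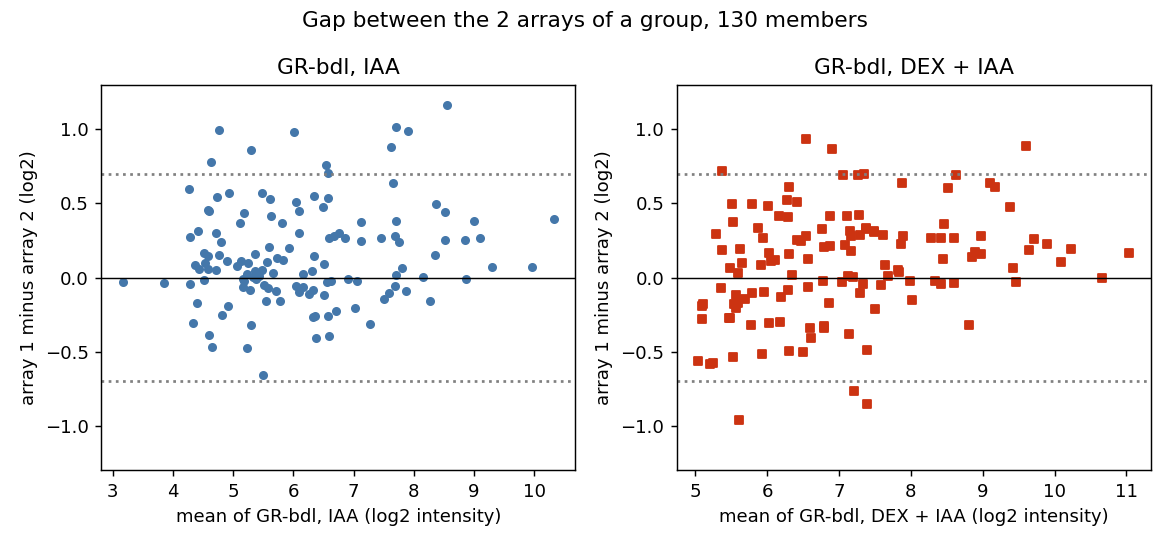
Difference between array 1 and array 2 (log2) against the group mean (log2 intensity) for the 130 members, in the controls (left) and in DEX-treated GR-bdl (right). Dotted lines mark gaps of 0.7. In the controls 10 points lie above the upper line and none below the lower, and with DEX 4 lie above and 3 below.

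Among the named members, AT3G53250 had the largest difference. It is SAUR57, a member of the small auxin up RNA family, many of whose genes are known as rapid auxin-induced genes of cell expansion. Its log2 levels were 3.16 and 3.19 in the controls, 5.02 and 5.20 with DEX, and 2.66 and 2.58 in mp. Thus SAUR57 was close to the floor in the controls and in mp, and stood clear of it in both DEX arrays. AT2G20670 read 8.39 and 7.40 in the controls, 9.73 and 9.55 with DEX, and 3.49 and 4.37 in mp. It was strong in GR-bdl with or without DEX, with control arrays almost 1 unit apart, and close to the floor in mp. For AT3G15570 the arrays gave 5.62 and 5.51 in the controls, 7.26 and 7.08 with DEX, and 7.62 and 7.66 in mp. AT3G16560 gave 6.46 and 6.57 in the controls, 7.97 and 8.00 with DEX, and 6.85 and 6.40 in mp. In AT3G15570 the mp arrays lay above the DEX arrays, and in AT3G16560 they lay around the controls.

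AT5G58570 read 5.46 and 5.62 in the controls, 6.77 and 6.79 with DEX, and 6.68 and 6.30 in mp, so its mp arrays fell between the GR-bdl groups. AT4G21310 gave 5.14 and 5.46 in the controls, 6.66 and 6.16 with DEX, and 4.32 and 4.19 in mp, with mp below all 4 other arrays. Levels of AT5G48490 were 6.25 and 5.95 in the controls, 6.82 and 7.59 with DEX, and 8.64 and 8.95 in mp, with mp above all others. AT4G33960 stood at 7.43 and 7.58 in the controls, 8.74 and 8.47 with DEX, and 8.44 and 8.44 in mp. AT1G78170 stood at 6.73 and 6.46 in the controls, 7.69 and 7.68 with DEX, and 6.61 and 6.18 in mp. In AT4G33960 mp was close to the DEX arrays, and in AT1G78170 mp overlapped the controls. AT1G54820 showed 4.32 and 4.49 in the controls, 5.33 and 5.60 with DEX, and 6.43 and 6.58 in mp, a step up from each group to the next. AT5G52050 is DTX50, a carrier of the multidrug and toxic compound extrusion family known for exporting abscisic acid, and read 4.51 and 4.53 in the controls, 5.51 and 5.63 with DEX, and 3.50 and 3.50 in mp. AT5G62900 read 6.32 and 5.87 in the controls, 6.95 and 7.34 with DEX, and 6.41 and 6.48 in mp. The mp arrays of DTX50 were thus below both GR-bdl groups, and those of AT5G62900 lay between them.

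**Figure D2:**
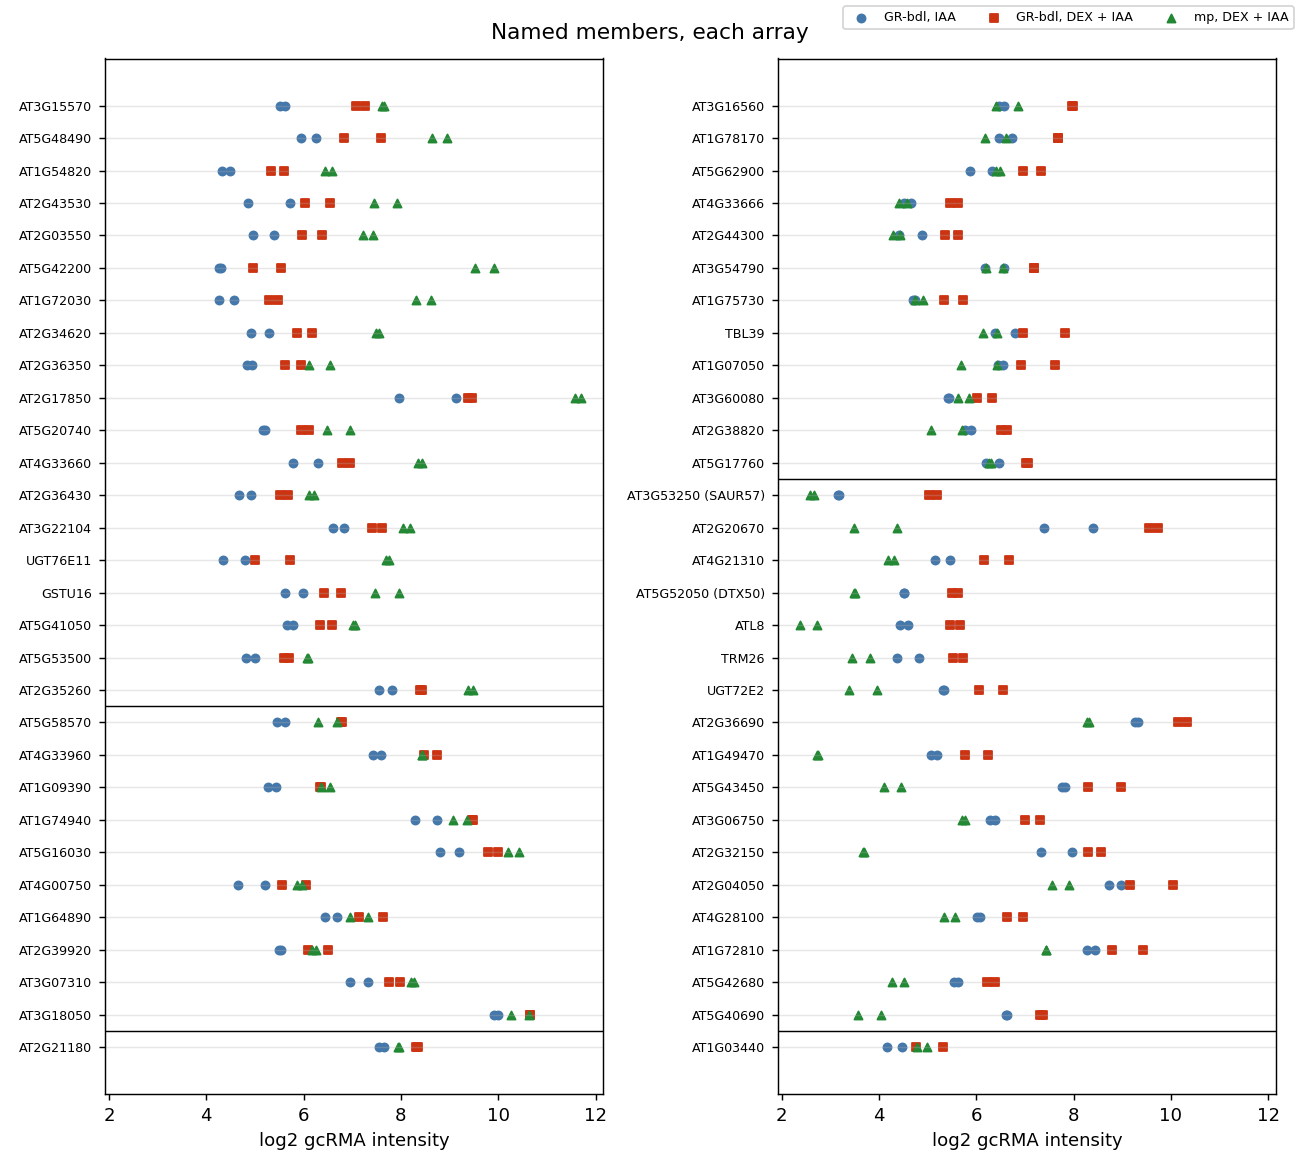
Log2 gcRMA intensity (horizontal axis) of the 60 named members in each of the 6 arrays, with circles for GR-bdl with IAA, squares for GR-bdl with DEX and IAA, and triangles for mp with DEX and IAA. Horizontal lines separate the standings in mp, in reading order: 19 genes higher than both GR-bdl groups, 10 higher than the controls only, 1 between, 12 lower than DEX-treated GR-bdl only, 17 lower than both, and 1 called in neither.

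The mp arrays were not used to choose the members, so the next question was how each member stood in mp. By the source labels, mp differed from the controls in DEX as well as in the mutation and the transgene, and these cannot be told apart. From DEX-treated GR-bdl it differed in the mutation and the transgene. Each mp comparison shares arrays with the rule, since the controls were chosen to be low and the DEX arrays to be high. The shares below are therefore given beside those of all probe sets, and no direction is read from a count alone. Against the controls, 67 of 130 members (51.5%) were higher in mp and 38 (29.2%) lower, in limma with adjusted p under 0.05. Of all 22746 probe sets, 23.9% were called higher and 17.5% lower in that comparison, and of the 10867 with a DEX mean of at least 5, 27.6% and 24.6%. Against DEX-treated GR-bdl, 35 members (26.9%) were higher in mp and 65 (50.0%) lower, against 22.1% and 18.0% of all probe sets and 26.8% and 25.8% of those 10867. The median difference of the members was 0.47 from the controls and −0.33 from DEX-treated GR-bdl, where all probe sets had medians of 0.12 and 0.07.

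The spread of the members in mp was wide on both sides. The differences from the controls ran from −5.84 to 5.44, with quartiles of −0.68 and 1.39, where all probe sets had quartiles of −0.19 and 0.36. A level at least 2 log2 units above the controls was found in 23 members (17.7%), and a level at least 2 units below in 14 (10.8%). Of the 10867 probe sets with a DEX mean of at least 5, 1.91% and 6.03% were so placed. In mp 19 members (14.6%) had a mean under 4, of which 9 are named, against 3.98% of those 10867. Of the members without a gene and the named ones, 52.9% and 50.0% were higher than the controls in mp and 30.0% and 28.3% lower. Against DEX-treated GR-bdl 22.9% and 31.7% were higher and 50.0% and 50.0% lower, and no difference between them was tested.

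**Figure D3:**
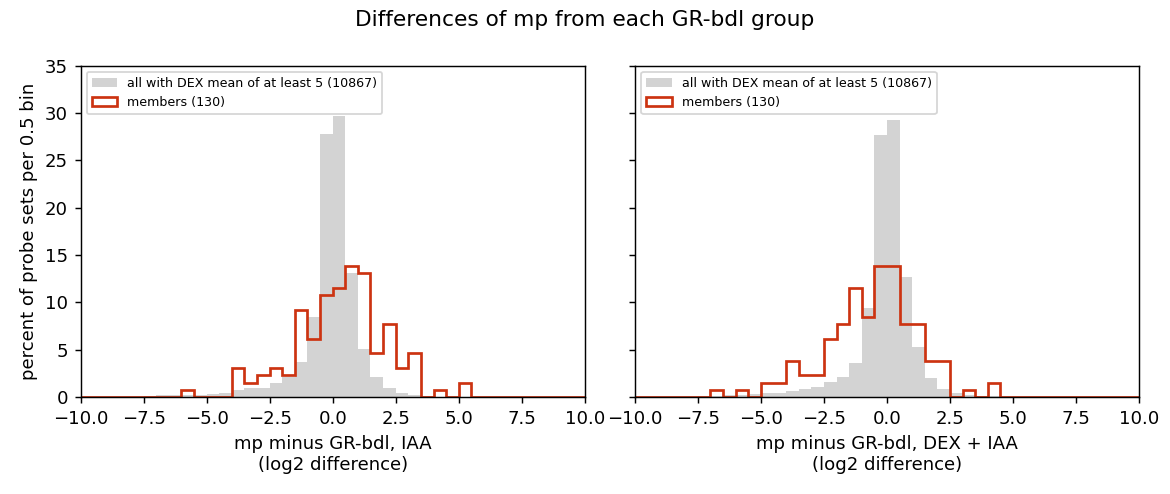
Percent of probe sets per bin of 0.5 by log2 difference of mp from the controls (left) and from DEX-treated GR-bdl (right), for the 130 members (line) and the 10867 probe sets with a DEX mean of at least 5 (grey). The members spread further to both sides, with medians of 0.47 and −0.33. The rule fixes part of the shift, because it used the arrays that are subtracted.

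Both comparisons together place the members in 6 standings. Members higher in mp than in both GR-bdl groups numbered 35 (26.9%), of which 19 are named, against 22.9% of the 10867 probe sets with a DEX mean of at least 5. Another 29 (22.3%), with 10 named, were higher than the controls and not called against DEX-treated GR-bdl, against 4.67%. Called between the GR-bdl groups, higher than the controls and lower than with DEX, were 3 (2.31%), with 1 named, against 0.0276%. Not called against the controls and lower than with DEX were 24 (18.5%), with 12 named, against 4.02%. Lower than both were 38 (29.2%), with 17 named, against 21.8%. The remaining member (0.769%), AT1G03440, was called in neither comparison, against 40.1%. The rule put the GR-bdl groups apart, which partly sets the shares of these standings.

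**Figure D4:**
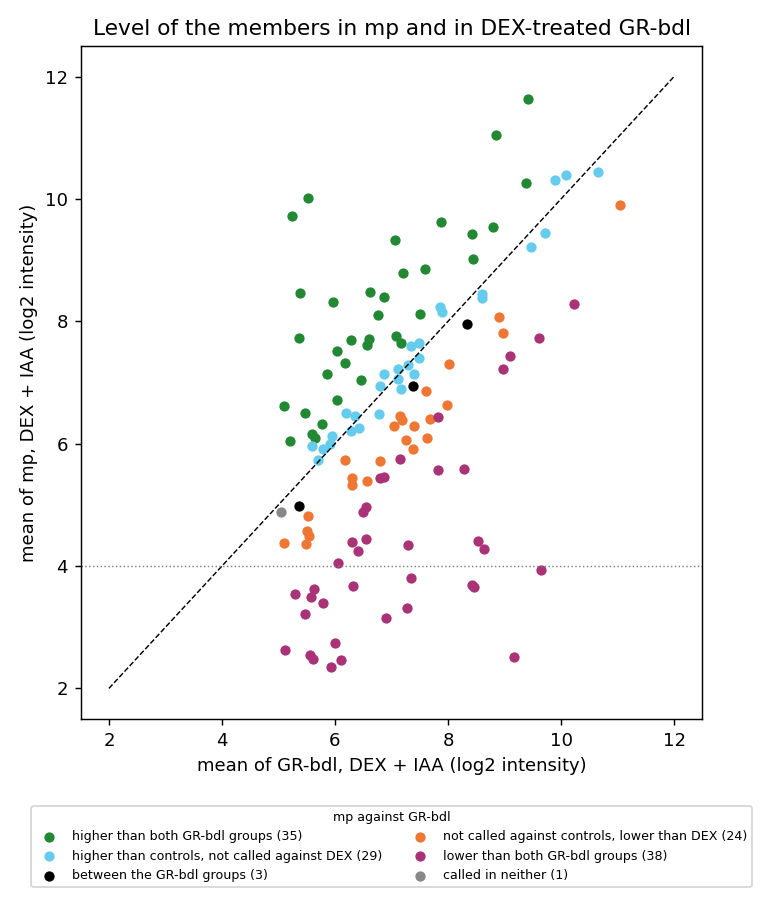
Mean log2 intensity in mp (vertical) against DEX-treated GR-bdl (horizontal) for the 130 members, coloured by standing in mp, with the number of members in each. The dashed line marks equal levels and the dotted line a level of 4, under which 19 members lie in mp.

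Of the 19 named genes higher in mp than in both GR-bdl groups, AT5G42200 and AT1G72030 differed most. AT5G42200 read 4.26 and 4.30 in the controls, 4.96 and 5.54 with DEX, and 9.51 and 9.92 in mp. Its mp level exceeded that of DEX-treated GR-bdl by 4.47 ± 0.20 (SE, n = 2 per group) and that of the controls by 5.44 ± 0.20 (limma adjusted p = 8.7e-07 and 2.89e-07). AT1G72030 read 4.58 and 4.26 in the controls, 5.47 and 5.28 with DEX, and 8.30 and 8.61 in mp, with mp higher than DEX-treated GR-bdl by 3.08 ± 0.16 (limma adjusted p = 1.63e-06). From the controls the difference of AT1G72030 was 4.04 ± 0.16. In both genes the rise from controls to DEX was small beside the distance to mp.

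UGT76E11, which encodes a UDP-glucosyltransferase, read 4.80 and 4.35 in the controls, 5.73 and 5.01 with DEX, and 7.76 and 7.70 in mp. Its difference from DEX-treated GR-bdl was 2.37 ± 0.24 (limma adjusted p = 8.54e-05). From the controls it was 3.16 ± 0.24. GSTU16, a gene of the tau class of glutathione transferases, enzymes that couple glutathione to other compounds, read 5.99 and 5.62 in the controls, 6.42 and 6.77 with DEX, and 7.47 and 7.96 in mp. For GSTU16 that difference was 1.12 ± 0.20 (limma adjusted p = 0.00245). From the controls GSTU16 differed by 1.91 ± 0.20. In AT2G17850 the arrays gave 9.13 and 7.97 in the controls, 9.45 and 9.38 with DEX, and 11.69 and 11.58 in mp. Its mp arrays lay over 2 units above the DEX arrays, while control array 1 came close to the DEX arrays. The differences of AT2G17850 were 2.22 ± 0.31 from DEX-treated GR-bdl and 3.09 ± 0.31 from the controls.

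The next genes of this standing rose above DEX-treated GR-bdl in mp by between 1.01 and 1.59. These were AT5G48490 (1.59 ± 0.24), AT4G33660 (1.53 ± 0.17), AT2G34620 (1.49 ± 0.16), AT2G43530 (1.41 ± 0.29), AT2G03550 (1.15 ± 0.19), AT1G54820 (1.04 ± 0.14) and AT2G35260 (1.01 ± 0.13). Against the controls the same genes differed by 2.69, 2.35, 2.41, 2.40, 2.13, 2.1 and 1.74. Their mean levels in mp ran from 6.51 (AT1G54820) to 9.43 (AT2G35260), with AT2G03550 at 7.32, AT2G34620 at 7.52, AT2G43530 at 7.69 and AT4G33660 at 8.39. In each of them both mp arrays were above both DEX arrays, as was the case in 40.0% of all probe sets.

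In the other 7 genes mp stood closer to the DEX arrays. The differences from DEX-treated GR-bdl were 0.69 ± 0.16 for AT5G20740, 0.61 ± 0.13 for AT3G22104, 0.57 ± 0.12 for AT5G41050 and 0.56 ± 0.13 for AT2G36430. They were 0.54 ± 0.17 for AT2G36350, 0.47 ± 0.12 for AT3G15570 and 0.44 ± 0.12 for AT5G53500. AT5G20740 read 5.17 and 5.20 in the controls, 6.11 and 5.94 with DEX, and 6.48 and 6.94 in mp. AT3G22104 read 6.60 and 6.82 in the controls, 7.40 and 7.61 with DEX, and 8.04 and 8.18 in mp. Both genes showed mp above the DEX arrays without overlap. AT5G41050 read 5.79 and 5.66 in the controls, 6.59 and 6.34 with DEX, and 7.05 and 7.02 in mp. Levels of AT2G36430 were 4.92 and 4.68 in the controls, 5.51 and 5.69 with DEX, and 6.21 and 6.11 in mp. Those of AT5G53500 were 4.82 and 5.01 in the controls, 5.70 and 5.60 with DEX, and 6.07 and 6.10 in mp. The same order held there, with smaller distances. AT2G36350 gave 4.95 and 4.84 in the controls, 5.62 and 5.94 with DEX, and 6.10 and 6.54 in mp, with the lower mp array just above the higher DEX array. From the controls AT5G20740, AT2G36350, AT3G22104, AT2G36430 and AT5G41050 differed by 1.53, 1.43, 1.40, 1.36 and 1.31.

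All 7 lost the call against DEX-treated GR-bdl when centred on hybridization controls, which lowers every difference of that comparison by the same amount and takes the all-probe-set median of 0.07 to −0.22. Their differences were then between 0.15 (AT5G53500) and 0.40 (AT5G20740). AT3G15570 had a limma adjusted p of 0.0122, and 0.0599 and 0.0541 without DEX array 2 and mp array 2. AT5G53500 had 0.017, and 0.0716, 0.0545 and 0.065 without DEX array 2, mp array 1 and mp array 2. AT5G20740 went from 0.00923 to 0.0554 without DEX array 2, and AT2G36430 from 0.0088 to 0.0506 without mp array 1. AT2G36350, at 0.035, was not called without either control array (0.0518 for both), DEX array 1 (0.173) or mp array 2 (0.195). Against the controls all 7 kept a higher call in mp under every alternative tried. AT5G53500 and AT3G15570 differed from them by 1.17 ± 0.12 and 2.07 ± 0.12, and over the alternatives the differences of the 7 ran from 0.86 (AT5G53500) to 2.13 (AT3G15570).

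Of the 10 named genes higher in mp than in the controls and not called against DEX-treated GR-bdl, 8 had a difference from the DEX arrays between −0.29 and 0.12, and 2 a larger positive one. AT5G16030 read 9.19 and 8.81 in the controls, 10.00 and 9.78 with DEX, and 10.42 and 10.20 in mp. AT3G07310 read 7.32 and 6.94 in the controls, 7.97 and 7.74 with DEX, and 8.27 and 8.20 in mp. In these 2 the mp arrays lay above the DEX arrays, with differences of 0.41 ± 0.16 and 0.38 ± 0.15 (limma adjusted p = 0.073 and 0.0831). From the controls they differed by 1.31 ± 0.16 and 1.10 ± 0.15. With the replicate number as a block both were called higher (0.0246 and 0.0454). AT5G58570 and AT4G33960 exceeded the controls by 0.95 ± 0.14 and 0.93 ± 0.13, and differed from DEX-treated GR-bdl by −0.29 ± 0.14 and −0.16 ± 0.13. Without mp array 1, AT5G58570 was called lower than with DEX (limma adjusted p = 0.0383).

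AT1G09390 and AT4G00750 had means of 6.45 and 5.92 in mp, with differences from DEX-treated GR-bdl of 0.10 ± 0.12 and 0.12 ± 0.21. Against the controls they differed by 1.09 ± 0.12 and 0.99 ± 0.21. AT2G39920 read 5.49 and 5.54 in the controls, 6.49 and 6.08 with DEX, and 6.17 and 6.26 in mp, so mp lay within the range of the DEX arrays. It differed by 0.69 ± 0.15 from the controls and −0.07 ± 0.15 from DEX-treated GR-bdl. AT1G74940 read 8.74 and 8.29 in the controls, 9.45 and 9.48 with DEX, and 9.07 and 9.37 in mp. Its difference from the controls of 0.71 ± 0.17 had a limma adjusted p of 0.0101, and 0.0806 and 0.0663 without control array 2 and mp array 2. The mp arrays of AT1G74940 lay between the GR-bdl groups, −0.25 ± 0.17 from the DEX mean.

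AT1G64890 and AT3G18050 lost their call against the controls without the most single arrays in this standing. AT1G64890 read 6.44 and 6.70 in the controls, 7.15 and 7.63 with DEX, and 7.32 and 6.95 in mp, and exceeded the controls by 0.57 ± 0.19 (limma adjusted p = 0.0476). The call was lost without control array 1 (0.227), control array 2 (0.067) or mp array 1 (0.244). AT3G18050, the strongest named transcript with DEX, read 9.99 and 9.92 in the controls, 10.65 and 10.66 with DEX, and 10.63 and 10.25 in mp. Its difference of 0.49 ± 0.14 (limma adjusted p = 0.0239) was not called without control array 1 (0.0785), control array 2 (0.124) or mp array 1 (0.128). From DEX-treated GR-bdl, AT1G64890 and AT3G18050 differed by −0.26 ± 0.19 and −0.21 ± 0.14. Centred on the hybridization controls, AT1G64890, AT1G74940, AT2G39920 and AT3G18050 were not called against the controls, with differences of 0.26, 0.40, 0.39 and 0.18. Under that centring AT5G58570, AT4G33960, AT1G64890, AT1G74940 and AT3G18050 were called lower than with DEX, at −0.57, −0.45, −0.54, −0.53 and −0.50.

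AT2G21180 was the named gene called between the GR-bdl groups. It read 7.54 and 7.64 in the controls, 8.32 and 8.34 with DEX, and 7.94 and 7.96 in mp, with no overlap of any groups. It was 0.36 ± 0.11 above the controls and −0.38 ± 0.11 from DEX-treated GR-bdl (limma adjusted p = 0.0267 and 0.0217). Against the controls the limma adjusted p was 0.182, 0.0828, 0.0731 and 0.0851 after leaving out, in turn, the control arrays 1 and 2 and the mp arrays 1 and 2, and 0.797 when centred on hybridization controls. Against DEX-treated GR-bdl it was 0.0656, 0.0768 and 0.062 without DEX array 2, mp array 1 and mp array 2. AT1G03440 read 4.17 and 4.48 in the controls, 4.76 and 5.32 with DEX, and 4.77 and 4.98 in mp. Its mp arrays overlapped the DEX arrays and lay above the controls, with differences of 0.55 ± 0.20 and −0.17 ± 0.20 (limma adjusted p = 0.0537 and 0.551). AT1G03440 was called higher than the controls under several alternatives, for example without either DEX array (0.0191 each).

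In 12 named genes mp was lower than DEX-treated GR-bdl and was not called against the controls. AT3G16560 and AT1G78170 were −1.36 ± 0.15 and −1.29 ± 0.16 from DEX-treated GR-bdl, and 0.11 ± 0.15 and −0.20 ± 0.16 from the controls. AT3G54790, AT5G17760 and AT1G75730 stood nearest to the controls, at 0.01 ± 0.17, −0.04 ± 0.12 and 0.10 ± 0.15. From DEX-treated GR-bdl these 3 differed by −0.81 ± 0.17, −0.76 ± 0.12 and −0.71 ± 0.15. Their mean levels in mp were 6.38, 6.28 and 4.82. A missed threshold against the controls does not show equal levels, and the SE bounds what could be seen.

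TBL39 belongs to the trichome birefringence-like family, several members of which are known to add acetyl groups to cell wall polysaccharides. It read 6.39 and 6.79 in the controls, 6.97 and 7.82 with DEX, and 6.44 and 6.13 in mp. The DEX arrays of TBL39 lay further apart than the controls. Both mp arrays lay below both DEX arrays and overlapped the controls. The difference from DEX-treated GR-bdl was −1.11 ± 0.27 (limma adjusted p = 0.0104, and 0.0644 with a pseudocount of 16), and −0.96 without mp array 2. From the controls TBL39 differed by −0.31 ± 0.27. AT4G33666 read 4.65 and 4.51 in the controls, 5.45 and 5.63 with DEX, and 4.57 and 4.42 in mp. AT2G44300 read 4.42 and 4.89 in the controls, 5.35 and 5.63 with DEX, and 4.43 and 4.30 in mp. Both had mp arrays overlapping the control arrays, with differences from DEX-treated GR-bdl of −1.05 ± 0.12 and −1.13 ± 0.17. From the controls they differed by −0.09 ± 0.12 and −0.29 ± 0.17. AT4G33666 is the direct neighbour of AT4G33660 in the TAIR10.1 gene order, with 0 protein-coding genes between them, and AT4G33660 stood higher in mp than in both GR-bdl groups.

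AT2G38820 read 5.88 and 5.77 in the controls, 6.63 and 6.51 with DEX, and 5.07 and 5.70 in mp. AT1G07050 read 6.55 and 6.46 in the controls, 7.61 and 6.92 with DEX, and 6.43 and 5.69 in mp. Their mp arrays lay below the controls but apart from each other, and the differences from the controls of −0.44 ± 0.19 and −0.44 ± 0.27 were not called. Without mp array 2, AT2G38820 was called lower than the controls, at −0.76 (limma adjusted p = 0.00577). From DEX-treated GR-bdl both were lower, at −1.18 ± 0.19 and −1.20 ± 0.27. AT5G62900 and AT3G60080 had mp arrays between the GR-bdl groups, 0.35 ± 0.18 and 0.31 ± 0.14 from the controls. For AT5G62900 the difference from DEX-treated GR-bdl was −0.70 ± 0.18 (limma adjusted p = 0.0149), with 0.0922, 0.071 and 0.0506 without DEX array 2, mp array 1 and mp array 2. AT3G60080 read 5.43 and 5.42 in the controls, 6.02 and 6.32 with DEX, and 5.63 and 5.85 in mp. Its difference of −0.44 ± 0.14 (limma adjusted p = 0.0356) was not called without either control array (0.062 each), DEX array 2 (0.175) or mp array 1 (0.181). Centred on the hybridization controls, AT1G07050, AT1G78170, AT2G38820, AT2G44300 and AT4G33666 were called lower than the controls in mp, with differences from −0.75 to −0.40.

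The 17 named genes lower in mp than in both GR-bdl groups hold 5 of the 8 genes with a family or function name. ATL8, which encodes a RING-H2 ubiquitin ligase of the ATL family, read 4.61 and 4.44 in the controls, 5.46 and 5.67 with DEX, and 2.38 and 2.72 in mp. It was lower in mp than in the controls, at −1.97 ± 0.15 (SE, n = 2 per group), and than with DEX, at −3.01 ± 0.15 (limma adjusted p = 1.62e-05 and 1.32e-06). UGT72E2, whose enzyme is known for adding glucose to monolignols, the building blocks of lignin, read 5.33 and 5.32 in the controls, 6.06 and 6.56 with DEX, and 3.96 and 3.38 in mp. In mp it differed by −1.66 ± 0.22 from the controls and −2.64 ± 0.22 from DEX-treated GR-bdl. ATL8 and UGT72E2 were both close to the floor in mp.

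TRM26, of a family of proteins that carry a motif for recruiting TON1, a protein of cortical microtubule arrays, read 4.83 and 4.38 in the controls, 5.72 and 5.53 with DEX, and 3.82 and 3.45 in mp. DTX50 differed by −1.02 ± 0.11 from the controls and −2.07 ± 0.11 from DEX-treated GR-bdl (limma adjusted p = 0.000114 and 1.76e-06), and TRM26 by −0.97 ± 0.18 and −1.99 ± 0.18. For SAUR57 (AT3G53250) the difference was −0.55 ± 0.11 from the controls (limma adjusted p = 0.0051) and −2.49 ± 0.11 from DEX-treated GR-bdl (limma adjusted p = 9.04e-07). Since SAUR57 had means of 3.17 and 2.62 in the controls and mp, both close to the floor, the first of these rests on little signal. With a pseudocount of 16 it was −0.17 (limma adjusted p = 0.0538).

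The largest named decreases in mp were in transcripts that were strong in GR-bdl. AT2G20670 was lower than the controls, at a difference of −3.96 ± 0.35, and than DEX-treated GR-bdl, at −5.71 ± 0.35 (limma adjusted p = 3.95e-05 and 4.54e-06). AT2G32150 read 7.97 and 7.34 in the controls, 8.55 and 8.29 with DEX, and 3.68 and 3.70 in mp, a difference of −3.96 ± 0.20 from the controls. AT5G43450 read 7.83 and 7.76 in the controls, 8.98 and 8.29 with DEX, and 4.11 and 4.45 in mp, and differed by −3.51 ± 0.22. From DEX-treated GR-bdl, AT2G32150 and AT5G43450 differed by −4.73 ± 0.20 and −4.35 ± 0.22. In these 3 no GR-bdl array lay under 7, and the mp means were between 3.69 and 4.28. AT5G40690 and AT1G49470 had means of 3.81 and 2.74 in mp, and differed from the controls by −2.82 ± 0.16 and −2.40 ± 0.16, and from DEX-treated GR-bdl by −3.53 ± 0.16 and −3.27 ± 0.16.

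AT2G36690, AT5G42680, AT4G21310 and AT1G72810 had means above 4 in mp. AT2G36690 was the strongest of them, with means of 9.29, 10.23 and 8.29 in the controls, with DEX and in mp, and differed from the controls by −1.0 ± 0.12 and from DEX-treated GR-bdl by −1.94 ± 0.12. AT5G42680, AT4G21310 and AT1G72810 differed from the controls by −1.19 ± 0.13, −1.05 ± 0.18 and −0.92 ± 0.19. From DEX-treated GR-bdl these 3 differed by −1.91 ± 0.13, −2.16 ± 0.18 and −1.66 ± 0.19. Their mean levels in mp were 4.40, 4.25 and 7.44. In each of them both mp arrays were below both control arrays, as in 28.3% of all probe sets.

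AT2G04050, AT4G28100 and AT3G06750 lost the call against the controls without single arrays. AT2G04050 read 8.97 and 8.72 in the controls, 10.04 and 9.16 with DEX, and 7.55 and 7.91 in mp, with DEX arrays well apart. Its difference from the controls of −1.11 ± 0.27 (limma adjusted p = 0.0101) stood at 0.057 and 0.0694 without control array 1 and mp array 1. AT4G28100 read 6.02 and 6.08 in the controls, 6.63 and 6.96 with DEX, and 5.56 and 5.33 in mp. Its difference of −0.61 ± 0.14 (limma adjusted p = 0.00963) stood at 0.0608 and 0.0607 without control array 2 and mp array 2. AT3G06750 read 6.29 and 6.38 in the controls, 7.31 and 6.99 with DEX, and 5.78 and 5.71 in mp, and its difference of −0.59 ± 0.13 (limma adjusted p = 0.00748) stood at 0.0571 without control array 2. All 3 genes were lower than with DEX under every alternative tried, at −1.87 ± 0.27, −1.35 ± 0.14 and −1.41 ± 0.13. Of the root markers matched to a probe set, EXPA7 (−3.80 ± 0.22), EXPA18 (−2.89 ± 0.25) and JKD (−1.52 ± 0.18) were also called lower than the controls in mp. PYK10, the other one, was not called (0.10 ± 0.11). Whether the decreases of the members are linked to those of the markers was not tested.

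Relatives of the members with a family name were looked up after DEX, as far as the annotation names them. These families were listed after the values had been seen, by symbol or full name in the annotation, and members are left out of the counts. Family genes without such a name or without a paired probe set are not counted. The annotation left 8730 probe sets without a gene, so the families are only partly covered. For the DEX comparison 0.637% of all probe sets were called higher and 1.64% lower (limma). Of 13 other TON1-recruiting motif genes, 10 other GSTU genes, 7 other UGT76 genes and 2 other ATL genes, 0 were called after DEX in either direction in limma. At an unadjusted limma p under 0.05 these families had 1, 4, 3 and 0. The 4 other UGT72 genes and 22 other TBL genes had 3 and 7. The share of all probe sets at that threshold is not given here, so nothing is read from these counts. Of 4 other UGT72 genes 1 rose, UGT72B3, which read 3.83 and 3.58 in the controls, 4.58 and 4.58 with DEX, and 5.19 and 5.55 in mp. Its rise of 0.87 ± 0.15 had a limma adjusted p of 0.0237, and 0.0574, 0.199, 0.0875 and 0.105 without control array 1, control array 2, DEX array 1 and DEX array 2. With a DEX mean of 4.58, UGT72B3 was under the level asked of members. Of 22 other TBL genes 1 was called after DEX, TBL45, which fell (−1.38 ± 0.14, limma adjusted p = 0.00186). Of other SAUR genes, the annotation named and paired with a probe set only 2. These were AT2G18010, known as SAUR10 and one of the auxin-induced genes that fell (−4.54 ± 0.15), and AT1G43040, at 2.29 and 2.46 without and with DEX. SAUR57 and SAUR10 thus moved in opposite directions, the former by the choice of members.

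In mp 5 of these families had genes called in both directions, beside 23.9% higher and 17.5% lower among all probe sets. Of the 10 other GSTU genes 2 were higher and 3 lower than the controls, including GSTU18 (2.72 ± 0.16) and GSTU22 (−4.69 ± 0.17). Among 22 other TBL genes 3 were higher and 9 lower, including TBL26 (1.95 ± 0.16) and TBL38 (−3.01 ± 0.15). Of 13 TON1-recruiting motif genes 5 were higher and 3 lower, including TRM24 (1.88 ± 0.19) and TRM19 (−0.94 ± 0.20). The 7 other UGT76 genes gave 2 higher and 2 lower, with UGT76E12 at 3.12 ± 0.17 and UGT76B1 at −4.15 ± 0.20. Of the 4 other UGT72 genes 1 was higher, UGT72B3 (1.67 ± 0.15), and 3 were lower, with UGT72E1 at −1.78 ± 0.11. Neither of the 2 other listed ATL genes was called. Of the 2 other listed SAUR genes AT2G18010 was lower (−2.10 ± 0.15) and AT1G43040 was not called. The median differences from the controls were 0.11 (GSTU), −0.27 (TBL), 0.34 (TON1-recruiting motif), 0.17 (UGT76), −1.05 (UGT72) and −0.14 (ATL), against 0.12 for all probe sets.

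Lists of genes linked by earlier work to sugar supply and dormancy, and to cytokinin, had few genes that the annotation matched to a probe set. The others may still be on the array among the probe sets without a gene. Of the 25 genes of the sugar and dormancy list, AT2G20670 was a member and 3 others were matched. None of the 3 was called after DEX in limma (1 at an unadjusted p under 0.05), at a median of 0.37: AT1G56220 (0.37 ± 0.13), the kinase subunit gene AKINBETA1 (0.26 ± 0.19) and AT4G27450 (0.40 ± 0.21). In mp AT1G56220 and AKINBETA1 were lower than the controls, at −1.47 ± 0.13 and −1.21 ± 0.19, and AT4G27450 was higher, at 1.04 ± 0.21. ARR16 aside, the annotation matched 1 of 16 cytokinin-linked genes, ARR15, with means of 3.55, 3.69 and 3.34 in the controls, with DEX and in mp. It was not called in any comparison, and at levels so close to the floor it says little about cytokinin genes. Among 24 cytochrome P450 genes found by name, many of them CYP71B genes, the median difference after DEX was 0.10. An unadjusted limma p under 0.05 was reached by 6. CYP71B26 (0.66 ± 0.14) and CYP71B24 (0.73 ± 0.16) were called higher under some alternatives only. The 1 called after DEX as reported was CYP71B37, at −0.71 ± 0.14. Its limma adjusted p was 0.0448, and between 0.0778 and 0.305 without either control array, DEX array 2 or either mp array. In mp 6 of the 24 were higher and 3 lower than the controls. The protein phosphatase 2C gene PIA1 was not called after DEX (−0.01 ± 0.15) and was lower in mp (−1.01 ± 0.15).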

How the data were processed

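RNA of 6 seedling cultures was measured on 6 ATH1 arrays. The authors deposited linear gcRMA intensity for each array (gcRMA per the submitters' processing notes, no version given). This method removes a sequence-dependent background, brings arrays to 1 distribution and summarises the probes of a set, and low values end up close together. From these deposited values the log2 was taken with no pseudocount, and 64 control probe sets were left out. Groups came from the source labels and design text, since the treatment text gives DEX to all samples and array titles leave it out for mp. Of all probe sets, 13513 (59.4%) were paired with 1 gene, 503 with several and 8730 with none. All 60 named members were found by locus in RefSeq (assembly TAIR10.1), used for names and gene order only.

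Differences in mp were tested in limma (version 3.58.1, R 4.3.3), all 6 arrays sharing 1 fit (3 residual and 5.12 prior degrees of freedom), and Benjamini-Hochberg adjustment over all 22746 probe sets at 0.05. Errors of differences are limma standard errors. The contrast that chose the members was not tested on them. The fit was run on simulated independent normal values with known changes in few probe sets. Such a run cannot speak to normalization or to changes as broad as those in mp. Every member with 1 gene is named, with all 6 array values for the 12 largest DEX differences and for genes whose call in mp turned under an alternative. Further values were printed after they had been seen. The members, lists and rules were chosen with earlier results of these data known. The gene lists hold 14 root, 7 shoot, 25 sugar and dormancy and 16 cytokinin genes. Text patterns for NPH3, DUF506, DUF1218 and pectin-active proteins matched no name in the annotation, so genes of these families were not looked up. Promoter motifs were not analysed here. Alternatives were other normalizations and centrings, a filter on means under 4, a pseudocount of 16, the replicate block, other eBayes settings, the 4 arrays compared alone and leaving out each array. Tables were handled in pandas 2.3.3 (Python 3.11.15, numpy 2.4.6) and plots drawn with matplotlib 3.10.9.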

Additional observations from a re-analysis of the deposited data

How the results depend on the processing

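The rule gave 130 members, and 69 with a pseudocount of 16, 207 with a difference of at least 0.6 and 35 with a difference of at least 1. A repeated quantile normalization gave 139, median centring 137, centring on the hybridization controls 119, a mean of at least 4 gave 153 and of at least 6 gave 97. Leaving out single arrays gave 126 to 181. Of the original members, 61 were lost with the pseudocount of 16, which shrinks the differences of low transcripts by its construction. Counts of members in mp stayed within 1.5 times of those reported under every alternative run. Higher than the controls were 52 to 68 (67 as reported), lower 33 to 49 (38), higher than DEX-treated GR-bdl 26 to 37 (35) and lower 60 to 74 (65). The ends 52, 49, 26 and 74 came from centring on the hybridization controls, which takes the all-probe-set median against the controls from 0.12 to −0.19. Leaving out single arrays gave 56 to 68, 34 to 39, 30 to 34 and 60 to 62. With the replicate block the counts were 67, 40, 37 and 65. Array 1 minus array 2 correlated by −0.03, −0.04 and 0.098 between groups over 22746 probe sets. Such low values do not settle whether the replicate numbers pair the cultures, since many of these probe sets lie close to the floor. Of the 60 named members, 15 changed their call against the controls and 19 against DEX-treated GR-bdl under at least 1 alternative, and none turned to a called difference of the opposite sign. With 2 arrays per group, levels close to the gcRMA floor limit what a decrease can show.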

Other observations

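Among the 70 members without a gene in the annotation used here, the difference between DEX-treated and control GR-bdl ran up to 1.76, in a probe set with means of 5.59 in the controls, 7.35 with DEX and 7.60 in mp. The lowest relative level in mp was that of a probe set with means of 8.36 in the controls, 9.17 with DEX and 2.52 in mp. The highest was that of a probe set with means of 4.62, 5.53 and 10.01. Of these 70 members, 37 were higher and 21 lower than the controls in mp, and 16 higher and 35 lower than DEX-treated GR-bdl (limma, adjusted p under 0.05).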
